A study of Homo sapiens with 6 samples.

Results

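NF-kappa B is a family of dimeric transcription factors, and the genes described here are its 5 subunits, 8 inhibitors and feedback regulators, 10 upstream kinases and adaptors, and 13 target genes. These 36 members were taken by gene symbol from the 38041 genes of the deposited expression table, and each symbol matched exactly 1 row. RNA of HCT116 cells, an epithelial line from a human colorectal carcinoma, was sequenced in 2 groups of 3 libraries. The overEXP group was stably transfected with EPHX2, which encodes soluble epoxide hydrolase, by a lentiviral vector under puromycin selection. The NC group carried the empty vector according to the sample titles, while another label calls it untreated. Both groups were grown in the same medium with serum and antibiotics. The promoter of the vector, and whether each library came from a separate infection or clone, are not given in the sources used here. The paper calls the libraries of a group cell lines and says no more of their origin, so the p-values reflect only how far libraries of a group differ, and that spread may be technical.

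In resting cells NF-kappa B dimers are held in the cytoplasm by inhibitor proteins of the I kappa B family. In the canonical branch, the IKK complex of CHUK, IKBKB and IKBKG marks these inhibitors for destruction and releases dimers of RELA and the NFKB1 product. In the noncanonical branch, the kinase MAP3K14 accumulates once TRAF3, TRAF2, BIRC2 and BIRC3 stop degrading it, and the NFKB2 precursor is then processed to a partner of RELB. Several members, among them NFKBIA, TNFAIP3, BIRC3, NFKB2 and RELB, are known to be regulators as well as targets of the factor.

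EPHX2 had 1.53, 1.96 and 1.50 FPKM in NC replicates 1 to 3 and 157, 162 and 181 FPKM in overEXP replicates 1 to 3, so every library matched its label. FPKM scales fragments to exon length and to the mapped reads of the library, and it allows levels of different genes to be compared. The table gives no read numbers, so sequencing depth is unknown. Of 7 epithelial markers all had at least 1 FPKM in every library, whereas the 4 endothelial markers stayed under 0.2 FPKM. The library overEXP replicate 2 stood apart, with 129 transcripts at 1 FPKM or more that were under 0.1 FPKM in each other library, against 0 to 7 such transcripts elsewhere. Its summed level of 9 markers of differentiated colon epithelium was 307 FPKM, against 3.05 to 4.07 FPKM in the other libraries. Its sums over 9 immune and 6 fibroblast markers were 15.3 and 12.5 FPKM, against at most 7.64 and 3.58 FPKM elsewhere. Most of that immune sum was CD68 at 8.12 FPKM and LYZ at 5.80 FPKM, and CD68 also had 5.39 to 7.11 FPKM in the other libraries. Mitochondrially encoded RNA took 29.6% to 34.6% of the summed FPKM in NC and 34.9% to 39.9% in overEXP. Because of these differences the members called, their signs and the separation of the groups are also given without overEXP replicate 2.

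Promoter stretches of 8 members are shown because the genes fall into the 2 patterns described below, a lower level in all overEXP libraries and a high level in overEXP replicate 2 alone. They come from the RefSeq promoter table of GRCh38.p14, which holds 250 bases before and 50 bases after a transcript start. Capitals mark matches to the 10-base kappa B consensus on either strand, and overlapping matches run into 1 block of capitals. The first 4 belong to members that were lower in overEXP, and for NFKB2 the first of its entries with a match is shown.
NFKB2 (chr10:102394440-102394539, plus strand): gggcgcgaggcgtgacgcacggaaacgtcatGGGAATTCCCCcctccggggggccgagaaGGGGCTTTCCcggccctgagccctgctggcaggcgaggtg
NFKBIA (chr14:35404776-35404875, minus strand): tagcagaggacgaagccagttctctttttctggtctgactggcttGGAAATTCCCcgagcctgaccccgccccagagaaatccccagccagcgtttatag
TNFAIP3 (chr6:137867153-137867252, plus strand): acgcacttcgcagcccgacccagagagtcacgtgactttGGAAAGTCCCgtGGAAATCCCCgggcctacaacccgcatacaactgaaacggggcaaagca
BIRC3 (chr11:102317272-102317371, plus strand): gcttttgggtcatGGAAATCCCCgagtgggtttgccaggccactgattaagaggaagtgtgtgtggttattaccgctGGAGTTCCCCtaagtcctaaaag

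The other 4 belong to chemokine genes that were high in overEXP replicate 2.
CXCL1 (chr4:73869269-73869368, plus strand): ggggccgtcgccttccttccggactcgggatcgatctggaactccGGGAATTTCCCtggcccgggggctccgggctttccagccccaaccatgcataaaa
CXCL2 (chr4:74099219-74099318, minus strand): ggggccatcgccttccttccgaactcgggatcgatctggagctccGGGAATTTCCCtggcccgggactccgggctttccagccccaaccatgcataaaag
CXCL3 (chr4:74038714-74038813, minus strand): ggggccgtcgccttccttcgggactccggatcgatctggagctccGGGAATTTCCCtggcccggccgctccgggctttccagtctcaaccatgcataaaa
CCL20 (chr2:227813718-227813817, plus strand): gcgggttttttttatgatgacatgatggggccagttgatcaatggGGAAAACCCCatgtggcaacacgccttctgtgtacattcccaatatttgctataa

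In these stretches NFKB2 holds 4 overlapping or separate matches, TNFAIP3 and BIRC3 hold 2 each and NFKBIA holds 1. CXCL1, CXCL2 and CXCL3 carry the same block of capitals, which begins 79, 78 and 79 bases before the transcript start, and their 300-base promoters are 72.1% to 82.5% identical in pairwise alignments. Of the 36 members, 31 had a promoter in the table, and 19 of them held at least 1 match, against 13.3% of all 27305 genes in it. RELB, NFKBIE, IKBKB, CXCL16 and LIF were not in the table. A match was present in 4 of 5 members that were lower in overEXP, in 10 of 19 that were tested without passing and in 5 of 7 below the filter on expression. MAP3K14 was the lower member with no match in its window. These matches describe letters in a window and were not tested as binding sites.

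In overEXP cells RELB, NFKB2, TNFAIP3, MAP3K14, BIRC3 and NFKBIA were lower than in NC cells, by 28.6% to 52.6% in mean FPKM. Of the 36 members, 29 had at least 1 FPKM in at least 3 libraries and were tested. Each of these reached 1 FPKM in libraries of both groups, CXCL1 with overEXP replicate 2 as the only overEXP library. The test was limma on log2(FPKM + 1) over all 12281 genes that passed this filter, at an adjusted p under 0.05. The added 1 makes fold changes smaller for genes at low FPKM. A log2 fold change given here is therefore not the log2 of the ratio of means, and its size depends in part on the level of the gene. Of the 29 members tested, 6 passed as lower, while 2.98% of all genes tested did so. No member passed as higher, also at an unadjusted p under 0.05, while 1.25% of all genes tested passed as higher. At an unadjusted p under 0.05, 19 members were lower, as were 16.4% of all genes tested, and 6.55% of all genes were higher. The median log2 fold change was -0.27 for the members and -0.05 for all genes tested, and 25 of the 29 members had a negative value, as did 61.6% of all genes. In 19 of the 29 members every overEXP library lay below every NC library, which held for 21.7% of all genes tested. The opposite order was found in 0 members and in 9.23% of all genes. The members were chosen with earlier results of these data known, so these shares describe the list and do not test it. The libraries were not equal in this, since overEXP replicate 1 held the lowest value of 23 of the 29 members and of 45.5% of all genes tested. The library overEXP replicate 2 held the lowest value of 3 members. Mitochondrial shares were 38.4% and 39.9% in overEXP replicates 1 and 2, and their part in this was not tested. The main fit used FPKM with no further scaling between libraries. The factor by which median-of-ratios scaling divides a library was 0.915 for overEXP replicate 1. It was 0.983 and 1.029 for overEXP replicates 2 and 3 and 1.010 to 1.037 for the NC libraries. Counts after this scaling are given below. Without overEXP replicate 1, 4 members passed as lower and 0 as higher, against 1.77% and 1.62% of all genes tested, and the medians were -0.23 for the members and -0.02 for all genes.

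**Figure D1:**
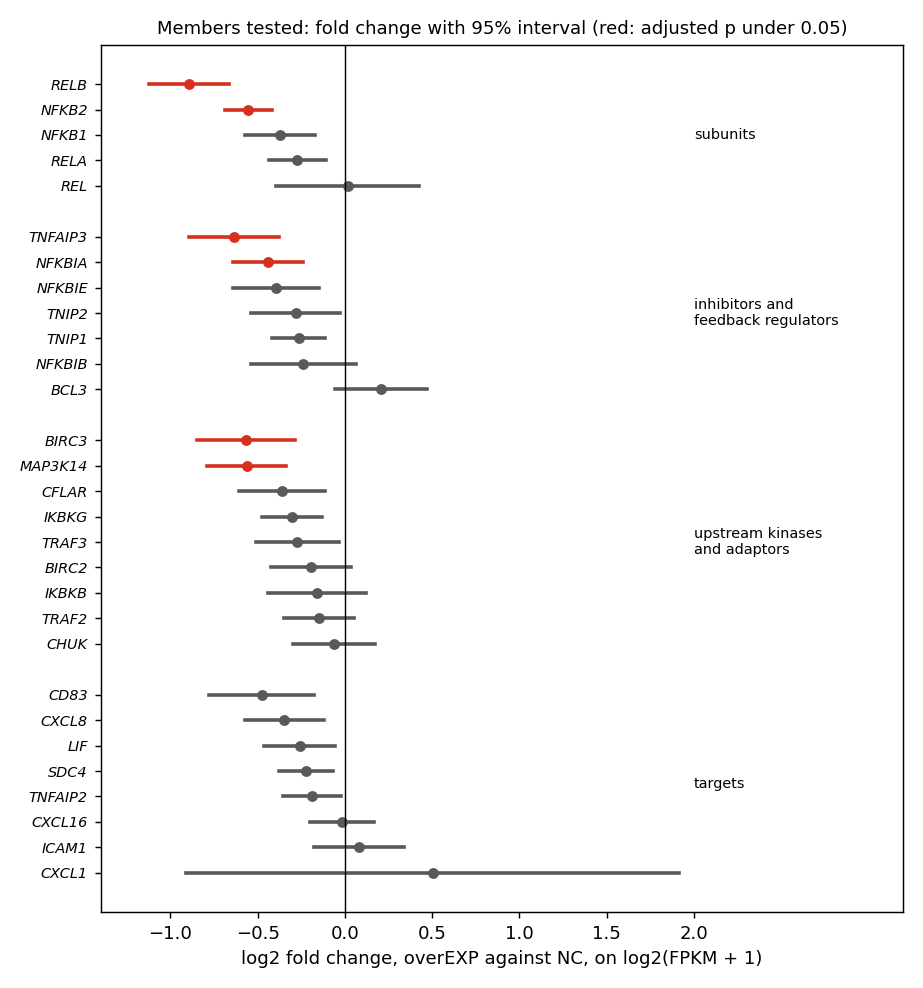
Log2 fold changes of the 29 members tested, overEXP against NC on log2(FPKM + 1), with 95% intervals from limma (3 libraries per group). RELB lies farthest to the left at -0.89, the 6 members in red passed the test, and the CXCL1 interval runs from -0.91 to 1.91.

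Among the subunits, the noncanonical pair RELB and NFKB2 was lower in overEXP cells. RELB, the noncanonical subunit (ENSG00000104856, chromosome 19 from 45001461 to 45038192 of GRCh38), had 8.49, 6.70 and 6.99 FPKM in the NC libraries and 3.76, 3.32 and 3.42 FPKM in the overEXP libraries. Every overEXP library was below every NC library, and the mean fell by 52.6% from 7.39 ± 0.96 to 3.50 ± 0.23 FPKM (SD, n = 3 each). The RELB log2 fold change was -0.89 (SE, the standard error, 0.10), and the adjusted p from limma was 0.0083. NFKB2, whose precursor is processed to the partner of RELB (ENSG00000077150, chromosome 10 from 102394110 to 102402524), had 34.0, 32.7 and 33.8 FPKM in NC and 22.1, 22.3 and 23.2 FPKM in overEXP. NFKB2 was the most abundant subunit in every library, its groups were far apart relative to their spread, and its log2 fold change was -0.55 (SE 0.06, limma adjusted p = 0.0083).

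The canonical subunits also lay lower in overEXP without passing the test. RELA, the main activating subunit, had 13.6, 12.4 and 13.0 FPKM in NC and 9.98, 11.1 and 10.8 FPKM in overEXP, a log2 fold change of -0.27 (95% interval from -0.44 to -0.11, adjusted p = 0.0765 from limma). NFKB1, which encodes the precursor of the usual partner of RELA, had 7.40, 8.13 and 8.36 FPKM in NC and 5.31, 6.20 and 6.31 FPKM in overEXP, a log2 fold change of -0.37 (adjusted p = 0.0576). The groups did not overlap in either gene. REL, the subunit best known from lymphocytes, overlapped between the groups, with 1.17, 1.40 and 0.993 FPKM in NC and 0.678, 1.45 and 1.60 FPKM in overEXP. REL shares 33.3% of its exon bases in GENCODE v44 with a noncoding gene on the same strand, and reads of the overlapping genes may not be separable.

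**Figure D2:**
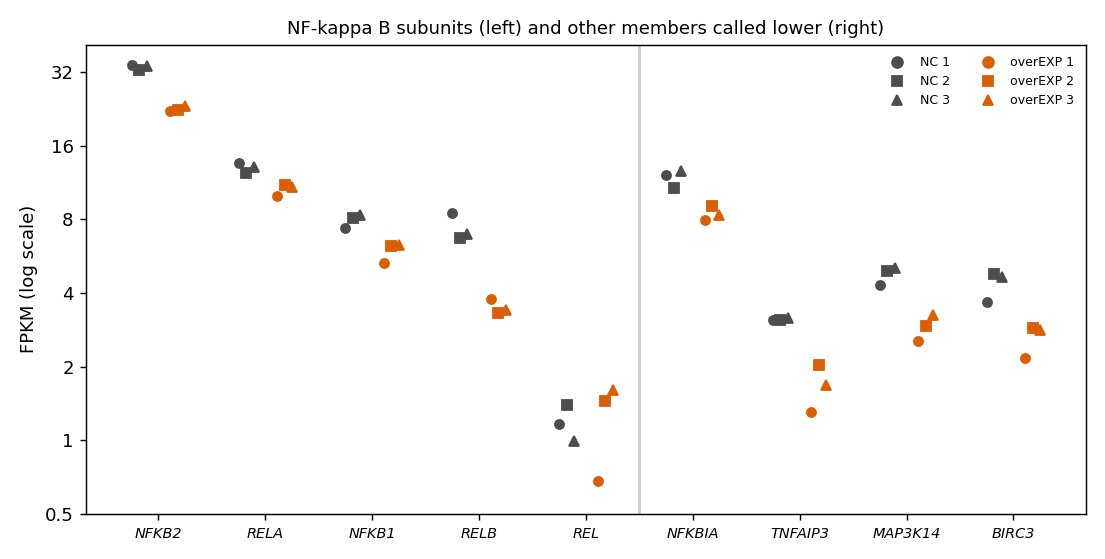
FPKM (log scale) of the 5 subunits, left, and of the other 4 members past the test, right, in each of the 3 NC and 3 overEXP libraries, with 1 symbol per library. The groups separate in each gene except REL, and NFKB2 is the highest subunit in every library.

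Ratios between members of the same library do not change when a library is multiplied by a factor, and 8 were computed after the values had been seen. All but NFKBIE to NFKBIB set a member called lower over one not called, so the choice itself favored lower ratios in overEXP. The ratio of RELB to RELA in FPKM was 0.622, 0.541 and 0.536 in NC and 0.377, 0.300 and 0.316 in overEXP. RELB was thus lower relative to RELA in each overEXP library, and the mean ratio went from 0.566 ± 0.048 to 0.331 ± 0.040 (SD, n = 3 each, two-sided exact permutation p = 0.1, the lowest possible with 3 against 3, and 0.133 after Benjamini-Hochberg adjustment over the 8 ratios). NFKB2 relative to RELA went from 2.58 ± 0.07 to 2.13 ± 0.10, again with no overlap, whereas NFKB2 relative to NFKB1 overlapped between the groups, at 4.22 ± 0.33 and 3.81 ± 0.31 (exact permutation test, p = 0.3). BIRC3 relative to its paralog BIRC2, MAP3K14 relative to CHUK, TNFAIP3 relative to its binding partner TNIP1 and NFKBIE relative to NFKBIB were each lower in every overEXP library than in every NC library (exact permutation p = 0.1 and adjusted p = 0.133 for each). NFKBIA relative to NFKBIB overlapped.

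**Figure D3:**
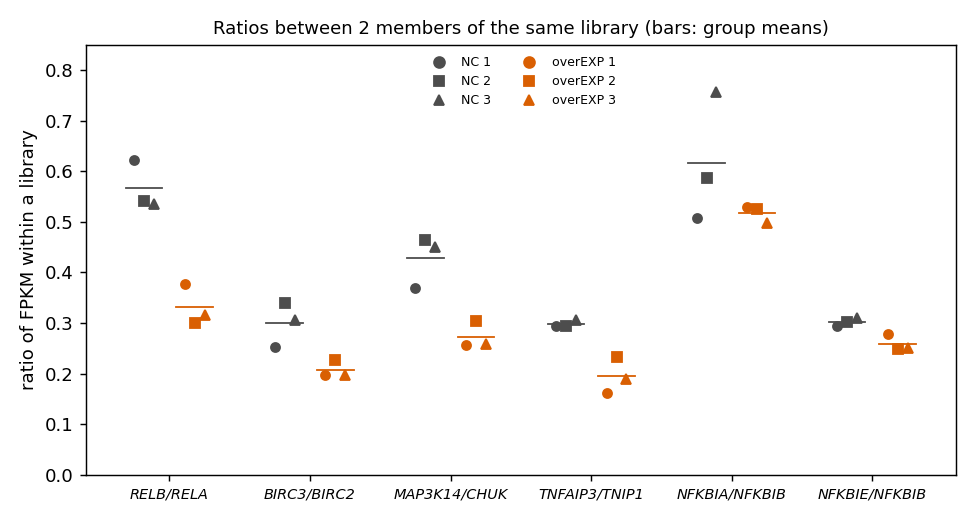
Ratios of FPKM between 2 members within each library, with NC in grey, overEXP in orange, 1 symbol per library and bars at the group means (n = 3). RELB/RELA lies between 0.536 and 0.622 in NC and between 0.300 and 0.377 in overEXP, and NFKBIA/NFKBIB overlaps.

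Among the inhibitors and feedback regulators, TNFAIP3 and NFKBIA were lower. TNFAIP3, a ubiquitin-editing enzyme that shuts off signaling to IKK (ENSG00000118503, chromosome 6 from 137867214 to 137883314), had 3.11, 3.11 and 3.15 FPKM in NC and 1.31, 2.03 and 1.67 FPKM in overEXP. Its NC libraries were nearly equal, the overEXP libraries were more spread, and all of them lay below NC. The TNFAIP3 mean was 46.5% lower in overEXP, with a log2 fold change of -0.64 (SE 0.11, limma adjusted p = 0.0299). The TNFAIP3 call was lost without overEXP replicate 3 or any 1 NC library (adjusted p from 0.0582 to 0.126). NFKBIA, the inhibitor that is resynthesized after activation (ENSG00000100906, chromosome 14 from 35401079 to 35404749), had 12.1, 10.7 and 12.7 FPKM in NC and 7.92, 9.07 and 8.32 FPKM in overEXP. NFKBIA was 28.6% lower in mean, with a log2 fold change of -0.44 (SE 0.08, limma adjusted p = 0.0378), and its groups did not overlap. The NFKBIA call was lost in 9 of 14 alternatives, with adjusted p from 0.0643 to 0.146 without any 1 library, 0.0617 with a replicate block and 0.0502 after rescaling to TPM without mitochondrial genes.

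The other I kappa B proteins did not pass. NFKBIE had 7.00, 5.52 and 5.18 FPKM in NC and 4.15, 4.31 and 4.20 FPKM in overEXP, a separation of the groups with a log2 fold change of -0.39 (adjusted p = 0.0818 from limma). NFKBIB overlapped between the groups, at 19.6 ± 3.8 FPKM in NC and 16.3 ± 1.2 FPKM in overEXP (SD, n = 3). BCL3, an atypical family member that can act as a coactivator in the nucleus, was the regulator with a positive value, at 2.28 ± 0.14 and 2.80 ± 0.49 FPKM (log2 fold change 0.20, 95% interval from -0.06 to 0.47, adjusted p = 0.323). NFKBIZ, a nuclear inhibitor and coactivator, stayed below the filter, at 0.753 to 0.976 FPKM in NC and at 0.657, 1.25 and 0.684 FPKM in overEXP. TNIP1 and TNIP2, which bind TNFAIP3, had log2 fold changes of -0.27 (adjusted p = 0.0658) and -0.28 (adjusted p = 0.177), and in both genes all overEXP libraries lay below NC.

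Among the upstream genes, the noncanonical kinase MAP3K14 and BIRC3 were lower. MAP3K14, the kinase that starts processing of the NFKB2 product (ENSG00000006062, chromosome 17 from 45263119 to 45317029), had 4.32, 4.94 and 5.05 FPKM in NC and 2.55, 2.94 and 3.24 FPKM in overEXP. Its mean was 39.0% lower, with a log2 fold change of -0.56 (SE 0.10, limma adjusted p = 0.0292) and no overlap. The MAP3K14 call was lost without overEXP replicate 2 or any 1 NC library (adjusted p from 0.0613 to 0.13). An antisense gene, MAP3K14-AS1, covers 15.1% of the MAP3K14 exon bases, and without stated strand counting their reads cannot be told apart. BIRC3, a ubiquitin ligase that restrains MAP3K14 and is itself a target (ENSG00000023445, chromosome 11 from 102317484 to 102339403), had 3.67, 4.79 and 4.63 FPKM in NC and 2.16, 2.87 and 2.83 FPKM in overEXP. BIRC3 was 39.9% lower in mean with separated groups and passed the test by a small margin (log2 fold change -0.57, SE 0.12, limma adjusted p = 0.0475). The BIRC3 call was lost without any 1 library (adjusted p from 0.0665 to 0.169) and after rescaling to TPM without mitochondrial genes (adjusted p = 0.0644). Its neighbor BIRC2, the paralog from 102347211 to 102378670 on the same chromosome, had 14.5, 14.1 and 15.2 FPKM in NC and 11.0, 12.7 and 14.4 FPKM in overEXP, with overlap between the groups (log2 fold change -0.19, adjusted p = 0.287).

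The IKK complex did not pass. CHUK, the kinase used by both branches, had a log2 fold change of -0.06 (95% interval from -0.30 to 0.17), and IKBKB, the canonical kinase, had -0.16 (95% interval from -0.44 to 0.12), each with overlapping groups. IKBKG, the scaffold of the complex, had 4.21, 4.13 and 3.97 FPKM in NC and 2.98, 3.15 and 3.28 FPKM in overEXP (log2 fold change -0.30, adjusted p = 0.0658 from limma). A near-identical copy, IKBKGP1, was listed at 3.93 to 7.28 FPKM, so the division of reads between the copies is uncertain. TRAF3, an adaptor that brings MAP3K14 to its ubiquitin ligases, had a log2 fold change of -0.27 (adjusted p = 0.165) with separated groups, and TRAF2, its partner, had -0.15 with overlap. CFLAR, an inhibitor of caspase activation, had 2.65 ± 0.12 FPKM in NC and 1.85 ± 0.33 FPKM in overEXP (SD, n = 3, log2 fold change -0.36, adjusted p = 0.0956), and its groups did not overlap. TRAF1, an adaptor and known target, was below the filter, at 0.487, 0.652 and 0.678 FPKM in NC and 0.0762, 0.435 and 0.357 FPKM in overEXP, with every overEXP library below NC.

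No gene among the 13 of the target class passed the test, and 5 of them were below the filter. RELB, NFKB2, NFKBIA, TNFAIP3 and BIRC3, which are known targets as well and passed as lower, are counted in the other classes. Of the 8 tested, 5 had groups that did not overlap, with lower values in overEXP, as did 21.7% of all genes tested. CD83, a membrane protein of the immunoglobulin family, had 4.80, 4.45 and 5.33 FPKM in NC and 2.50, 3.43 and 3.78 FPKM in overEXP (log2 fold change -0.48, adjusted p = 0.0817 from limma). The chemokine gene CXCL8 had 5.02, 6.14 and 6.38 FPKM in NC and 4.27, 4.19 and 4.64 FPKM in overEXP (log2 fold change -0.35, adjusted p = 0.0877). LIF, a cytokine of the interleukin 6 family, the heparan sulfate proteoglycan SDC4 and TNFAIP2 had log2 fold changes of -0.26, -0.22 and -0.19, with adjusted p from 0.101 to 0.166. SDC4 was the most abundant of all members, at 99.5 ± 2.1 FPKM in NC and 85.2 ± 4.4 FPKM in overEXP (SD, n = 3). The membrane-bound chemokine CXCL16 had overlapping groups at 18.9 ± 0.98 and 18.7 ± 1.5 FPKM (log2 fold change -0.01, 95% interval from -0.20 to 0.17). The adhesion receptor ICAM1 was at 1.25 to 1.41 FPKM in NC and at 1.32, 1.81 and 1.27 FPKM in overEXP, and an antisense gene covers 23.6% of its exon bases. LTB and TNF, ligands that activate the pathway, were nearly absent, with at most 0.225 and 0.0292 FPKM in any library.

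The chemokine genes CXCL1, CXCL2, CXCL3 and CCL20 showed another pattern, a high level in overEXP replicate 2 alone. CXCL1, a neutrophil chemokine, had 1.19, 1.19 and 1.28 FPKM in NC and 0.651, 8.82 and 0.923 FPKM in overEXP. The value in overEXP replicate 2 was 6.86 times the highest of the other 5 libraries, and the other 2 overEXP libraries lay below all NC libraries. CXCL2 had 0.214, 0.570 and 0.387 FPKM in NC and 0.159, 2.59 and 0.139 FPKM in overEXP. CXCL3 had 0.400, 0.211 and 0.162 FPKM in NC and 0.277, 3.19 and 0.0978 FPKM in overEXP. These genes lie together with CXCL8 on chromosome 4 between 73740519 and 74099196, and as close paralogs they may share reads, whereas the CXCL8 level in overEXP replicate 2 was the lowest of the 6 libraries. CCL20, which attracts CCR6-bearing lymphocytes, is on chromosome 2 and was listed at 0, 2.12 and 0.151 FPKM in overEXP replicates 1 to 3, against 0.0217 to 0.085 FPKM in NC.

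The same library was the one with colon epithelium markers that the others lacked. CEACAM5, LGALS4 and KRT20 had 123, 42.1 and 19.0 FPKM in overEXP replicate 2, against at most 0.048, 0.068 and 0.463 FPKM in any other library. Of the 9 markers on this list, CDX2 alone was at 1 FPKM or more in the other libraries. The immune marker LYZ and the fibroblast marker COL1A2 were also highest there, at 5.80 and 2.41 FPKM. The defining T cell, B cell and leukocyte markers CD3E, MS4A1 and PTPRC were low but highest there too. They had 0.083, 0.115 and 0.087 FPKM, against at most 0, 0 and 0.026 FPKM elsewhere. The immune marker CSF1R was not highest there, at 0.070 FPKM against up to 0.074 FPKM elsewhere. The part of these cells or RNAs in the chemokine values was not tested, and in bulk RNA a change in the number of cells of a type and a change in RNA per cell cannot be told apart. None of the 36 members was among the 129 transcripts read almost alone in overEXP replicate 2. This rests on the limits set, since CCL20, at 2.12 FPKM there, missed them only through 0.151 FPKM in overEXP replicate 3. The mean CXCL1 level in overEXP was 3.46 ± 4.64 FPKM (SD, n = 3) with this library and 0.787 FPKM without it, and the log2 fold change turned from 0.50 (adjusted p = 0.651 from limma) to -0.32 (adjusted p = 0.208). Without this library 28 of the 29 members tested had a negative log2 fold change. Among them CXCL1 was then at 1 FPKM or more in NC libraries alone, so its lower value was built into its selection. RELB, NFKB2 and TNFAIP3 still passed as lower, at adjusted p of 0.032, 0.032 and 0.0357, whereas NFKBIA, MAP3K14 and BIRC3 did not (adjusted p from 0.0772 to 0.0939). These 3 calls were 2 of 5 subunits and 1 of 7 inhibitors and feedback regulators, and 0.48% of all genes tested passed as lower and 0.391% as higher in the same fit. At an unadjusted p under 0.05, 17 members were lower and 0 higher, against 13.7% and 5.55% of all genes. The groups then did not overlap in 22 members, CXCL1 among them, all lower in overEXP, against 26.8% of all genes lower and 11.7% higher.

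**Figure D4:**
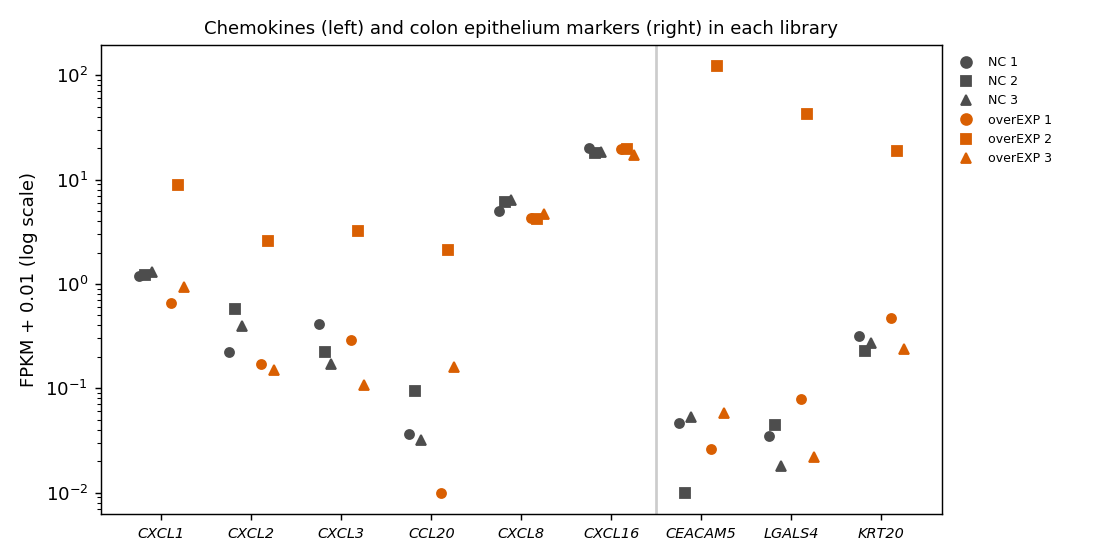
FPKM + 0.01 (log scale) of 6 chemokine genes, left, and 3 colon epithelium markers, right, in each of the 6 libraries, with 1 symbol per library. The orange square, overEXP replicate 2, is far above the other libraries in CXCL1, CXCL2, CXCL3, CCL20 and the markers, and within or below them in CXCL8 and CXCL16.

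Other genes of the pathway were read from 3 further lists of receptors and adaptors, of kinases and ubiquitin enzymes, and of targets. Of 89 such genes, 57 were tested, 2 passed as lower (3.51%, against 2.98% of all genes tested) and 0 as higher, and their median log2 fold change was -0.09. At an unadjusted p under 0.05, 12 were lower and 2 were higher, against 16.4% and 6.55% of all genes. Without overEXP replicate 2 none of the 57 passed by limma, and 11 were lower and 2 higher at an unadjusted p under 0.05. Both that passed were targets. PLAU, the urokinase plasminogen activator, had 28.1, 28.6 and 30.1 FPKM in NC and 18.5, 19.5 and 20.9 FPKM in overEXP, with separated groups and a log2 fold change of -0.54 (SE 0.07, limma adjusted p = 0.0121). EBI3, a subunit of heterodimeric cytokines, had 1.67, 1.02 and 1.68 FPKM in NC and 0.473, 0.378 and 0.543 FPKM in overEXP (log2 fold change -0.73, adjusted p = 0.0347), and it passed the filter through the NC libraries alone, so a difference was built into its selection. With 0.1 added to FPKM in place of 1, the EBI3 log2 fold change was -1.44. The kinase and ubiquitin enzyme list had a median of -0.04 with 0 of 22 past the test, and the receptor and adaptor list had a median of -0.15 with 0 of 18. By class, 2 of 5 subunits, 2 of 7 inhibitors and feedback regulators, 2 of 9 upstream genes and 0 of 8 targets of the 36-member list passed as lower, with medians of -0.37, -0.28, -0.27 and -0.21. Known targets that are also subunits or regulators are not in the target class, so these counts do not set regulators against targets.

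RELB passed as lower without any single library, with adjusted p from 0.0165 to 0.0439 and log2 fold changes from -0.95 to -0.80, and without NC replicate 3 it was the only member to pass. With no filter on low values, 0 of the 29 members passed and the RELB adjusted p was 0.0611, while 2 of all 38041 genes passed as lower.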

How the data were processed

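RNA sequencing was compared between 3 NC and 3 overEXP libraries, assigned from the sample titles and the column names. According to the paper's methods, the authors filtered reads with FastQC, mapped them to GRCh38 with HISAT2 (version 2.0.4, from the submitters' processing notes), assembled and quantified them with StringTie and deposited FPKM per gene and library. The annotation release and strand setting are not given in the sources used here. Low values formed no whole-read steps, so depth stays unknown and counting error could not be estimated. The authors' fold changes, p-values and regulation calls were not used.

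Log2(FPKM + 1) of the 12281 genes that reached 1 FPKM in 3 or more libraries was compared by limma 3.58.1 (R 4.3.3) with a variance trend, two-sided, and p-values were adjusted over all genes tested by the Benjamini-Hochberg method. The fit was checked on data made with known changes. All members are named, with further pathway genes past the test and EPHX2. The members, classes and lists were chosen with earlier results of these data known. The alternatives were another pseudocount, other filters, 4 scalings, a replicate block and the removal of each library. Gene positions are from GENCODE v44.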

Additional observations from a re-analysis of the deposited data

How the results depend on the processing

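The counts depended on scaling, filter and libraries, and which step caused each shift was not tested. With no filter on low values, 0 members and 0 further pathway genes passed as lower, and over all genes 3 passed as higher and 2 as lower. After rescaling to TPM, 13 members and 5 further pathway genes were lower, over all genes 94 were higher and 852 lower, and the medians were -0.43 for members and -0.20 for all genes. After rescaling to TPM without mitochondrial genes, 4 members were lower, without NFKBIA and BIRC3, and over all genes 106 were higher and 262 lower. Median-of-ratios scaling and quantile normalization gave 345 and 330 genes higher and 359 and 395 lower, with 8 members lower in each. Each of these and a filter at 5 FPKM gave 1 further pathway gene higher. The median of members lay 0.20 to 0.23 below that of all genes in every alternative that filtered on expression. With no filter on low values it lay 0.27 below, but there the 29 members past the main filter were set against all 38041 genes. Under each scaling, 24 to 27 of 29 members were negative. Without 1 library, 1 to 4 members, 0 to 1 further pathway genes and 21 to 383 of all genes were lower, and 0 to 1 further pathway genes and 23 to 199 of all genes were higher. Replicate numbers do not pair the libraries by the labels, and deviations of same-numbered libraries correlated at 0.36, -0.02 and 0.37. With a replicate block 213 genes were lower, and 5 members passed, without NFKBIA. Genes that did not pass changed sign as follows. REL had -0.0060 with a pseudocount of 0.1, -0.106 as TPM, -0.0187 as TPM without mitochondrial genes and -0.106 to 0.211 without 1 library. ICAM1 had -0.0066 as TPM and -0.0160 to 0.136 without 1 library, CXCL1 -0.318 to 0.969, and CXCL16 0.0528 and 0.0521 under median-of-ratios scaling and quantile normalization and -0.0504 to 0.0484 without 1 library.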

Other observations

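Some further pathway genes, chosen after their values were seen, shared the pattern of CXCL1 and CCL20. TNFRSF1B, a receptor for tumor necrosis factor, had 1.95 FPKM in overEXP replicate 2 and at most 0.0614 FPKM in any other library. IL32, a cytokine gene, had 8.60 FPKM there and 0.435 to 0.882 FPKM elsewhere, and CD74, the invariant chain of antigen presentation, had 5.87 FPKM there and at most 0.242 FPKM elsewhere. The targets TNFAIP8 and B2M had higher values in every overEXP library than in every NC library without passing the test (log2 fold changes 0.36 and 0.33, adjusted p = 0.062 and 0.0628 from limma). They were the 2 of 57 further pathway genes tested with this order, which held for 9.23% of all genes tested. The opposite order, lower in every overEXP library, was found in 16 of the 57 (28.1%), against 21.7% of all genes.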
